A study of Drosophila melanogaster with 6 samples.

Results

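Small nucleolar RNAs of Drosophila melanogaster eye-antennal imaginal discs were compared between 11 and 5 days after egg laying. The members were the 129 rows, of 16727 in the count table, whose symbol starts with snoRNA: and whose reads summed to at least 30 over all 6 libraries. Of the 273 rows with that prefix, 213 held a count in any library. The sum over libraries thus chose the members, so their abundance is a description. Names starting with Me give box C/D guides of ribose methylation (37 members), and names starting with Psi give H/ACA guides of pseudouridylation (58 members). The 34 members with other names, among them U14, U29 and orphan RNAs, start with neither and were kept apart. Some of these names, such as Or-CD8 and Or-aca5, do point to a kind. Counts by kind below rest on the Me and Psi names only.

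Box C/D RNAs assemble with Fib (fibrillarin, the methyltransferase), Nop56, nop5 and hoip, and pair with ribosomal RNA to place 2′-O-methyl groups. H/ACA RNAs assemble with Nop60B (dyskerin, the pseudouridine synthase), NHP2, Gar1 and Nop10. In flies most of both kinds are cut from introns of host genes and are trimmed by exonucleases. Hosts include genes for ribosomal proteins, other coding genes and Uhg genes, which are non-coding. Mature forms generally lack a poly(A) tail, while short tails mark precursors and RNAs on the way to trimming or decay. The rest of a name gives the ribosomal RNA and the base that the guide is assigned to, so that Me28S-A2589a is assigned to an adenosine of the 28S RNA, and letters mark copies with the same assignment.

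All larvae had the genotype y w; +/+; +/+ and were reared at 25 °C on food made from the erg2Δ::TRP1 yeast, which cannot supply the steroid precursors needed for pupation. The day 11 larvae carried the label for completed growth and the day 5 larvae that for active growth, with 3 libraries at each age. Every library pooled 30 or more discs. There was no library of larvae on normal food, so age, time on this food and the end of growth cannot be told apart. Whether the libraries of a day stem from separate cultures is not stated, and p-values here rest on a spread between libraries that may be technical. The kit primes on poly(A) and reads near the 3′ end. Tags from tailed precursors, mature RNA primed at internal A-rich stretches and unspliced host transcripts cannot be told apart. Nor can fewer cells of a type and less RNA per cell in these bulk samples.

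The libraries held 9049513, 7670180 and 8091388 counts at day 11 and 6542782, 7950251 and 7161118 at day 5. At these depths 3 counts stand for 0.321 to 0.461 CPM (TMM-scaled counts per 1e6 reads). The rows CR40469 and CR34335 took 26.3%, 40.8% and 39.6% of the counts at day 11 and 14.5%, 19.0% and 16.3% at day 5. The 10 disc markers listed summed to between 2170 and 2809 CPM at day 11 and between 2656 and 2778 CPM at day 5, a sum carried mainly by hth. Of these 10, oc rose and 4 fell, with log2 fold changes of −2.99 for ato, −2.54 for dac, −1.49 for eya and −0.90 for ey. Markers of the salivary gland, a neighbouring polytene tissue, summed to 104, 111 and 1225 CPM at day 11 and to 8.20, 17.3 and 4.93 CPM at day 5. Haemocyte markers summed to between 96.7 and 310.4 CPM at day 11 and between 51.9 and 72.9 CPM at day 5. Fat body markers summed to between 68.1 and 844 CPM at day 11 and between 56.4 and 516 CPM at day 5, and muscle markers to between 60.6 and 113 CPM at day 11 and between 149 and 445 CPM at day 5. Glia markers reached at most 30.4 CPM at day 11 and 19.9 CPM at day 5, brain markers 21.7 CPM at day 11 and 18.8 CPM at day 5, and gut markers 5.53 CPM at day 11 and 4.22 CPM at day 5, with LysD at 0. The part of these other tissues in the results below was not tested.

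Across the members, single snoRNAs moved strongly in both directions while the middle of the group lay close to that of all genes. Of the 96 members with enough counts to test, 17 rose and 14 fell at day 11 by edgeR's quasi-likelihood test (Benjamini-Hochberg adjusted p under 0.05 over 8010 genes), which is 17.7% and 14.6%. Over all genes tested, 37% were called, 19.1% higher and 17.9% lower at day 11. The median log2 fold change, day 11 over day 5, was −0.039 over the members and −0.0065 over all genes, and the quartiles of the members were −0.52 and 0.61, against −0.47 and 0.48 for all genes. The extremes among the members were −3.65 and 4.21. The days did not overlap for 35 of the 96 tested members, or 36.5%, against 50.8% of all genes tested. Of the called members, 9 had fewer than 30 counts on their lower day (4 that rose and 5 that fell) and so met the count rule only through the day on which they were high: Me28S-A2589c, snoRNA:229, CG32479-a and Psi18S-525k, and snoRNA:185, Me28S-G2703b, Psi28S-1175b, Me18S-C419 and Or-CD10. The values of these 9 are given as a description. When libraries were scaled by total counts, 11 members were higher and 18 lower, and the median of all genes shifted by −0.27 on the log2 scale, to 865 genes higher and 2207 lower. The count of higher members fell to 11 without day 5 replicate 1, to 11 without day 5 replicate 3 and to 11 without day 11 replicate 3. Over all genes the count of higher ones fell too in these runs, from 1533 to 1246, 1292 and 1187.

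The 33 members too low to test held 31 to 85 counts each. Among them the days overlapped for 27, while 2 (Me28S-A774b and Psi28S-2566) were higher in every day 11 library and 4 (Me18S-G1952, Psi28S-1135a, Psi18S-841a and Psi28S-1153) lower. These untested separations at low counts are a description. Over all genes tested, the days did not overlap for 50.8%. Just inside the limit of 30 counts stood Psi18S-640b, Psi28S-1153 and Me28S-A774b with 31 counts each. Just outside it, with 29 counts each, stood Psi18S-841b, Me28S-G3113b, Psi18S-110, Psi28S-2149 and Psi28S-1135d.

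Libraries of the same day differed in their overall snoRNA level. The members summed to 1537, 2562 and 2672 CPM at day 11 and to 1313, 1889 and 1106 CPM at day 5, which was 0.159%, 0.217% and 0.227% of the counts at day 11 and 0.152%, 0.197% and 0.122% at day 5. Day 11 replicate 1 was the lowest of its day for 71 of the 96 tested members, or 74.0%, against 39.6% of all genes. Day 5 replicate 2 was the highest of its day for 67 members, or 69.8%, against 32.6% of all genes. The part of these libraries in single results was not tested beyond leaving each out in turn.

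A few RNAs carried most of the reads. The 2 most counted members, the H/ACA RNA Psi28S-3342 and the box C/D RNA Me18S-A1576, held 44.0% of all member counts, and the 10 most counted held 69.7%, while 58 members had fewer than 100 counts in all. Box C/D RNAs summed to 709, 1242 and 1176 CPM at day 11 and to 404, 554 and 364 CPM at day 5. Without Me18S-A1576 that sum was 391 ± 61.8 CPM at day 11 and 335 ± 70.0 CPM at day 5 (SD, n = 3 each), and the days overlapped. H/ACA RNAs summed to 660.5, 1117 and 1263 CPM at day 11 and to 768, 1137 and 606 CPM at day 5. Without Psi28S-3342 the H/ACA sum was 414 ± 104 CPM at day 11 and 534 ± 181 CPM at day 5. Members with other names summed to 168, 203 and 233 CPM at day 11 and to 141, 198 and 136 CPM at day 5. No sum was tested, since the members were chosen by their counts.

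**Figure D1:**
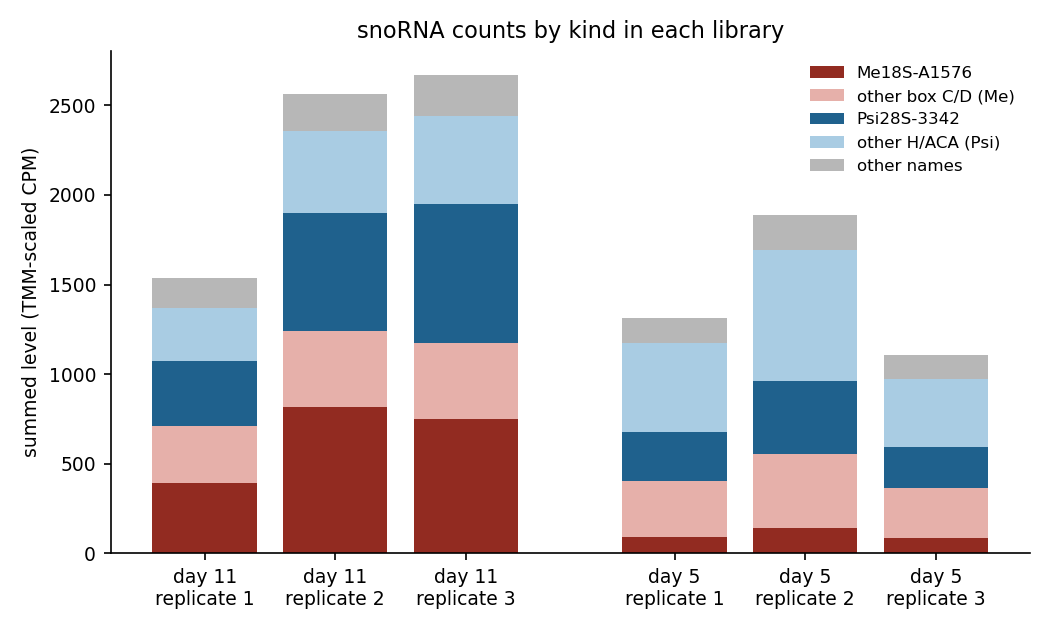
Summed CPM of box C/D, H/ACA and other-named snoRNAs per library, with day 11 left of day 5 and with the most counted member of each kind as a separate segment; each stacked bar is 1 library. The box C/D sum was 709 to 1242 CPM at day 11 and 364 to 554 CPM at day 5, and Me18S-A1576 accounted for most of that difference.

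By kind, 7 box C/D RNAs rose and 5 fell of 31 tested (38.7% called), and 4 H/ACA RNAs rose and 7 fell of 40 tested (27.5% called), beside 37% of all genes. Median log2 fold changes were −0.10 for box C/D and −0.11 for H/ACA RNAs. The difference between the kinds was not tested. The box C/D median did not hold its sign, being 0.41 over the members with at least 5 CPM in 3 libraries and −0.41 after scaling by total counts. Of the members with other names, 6 rose and 2 fell of 25 tested (32%), with a median of 0.20. Split by target as the names give it, 3 of 6 tested guides of 18S methylation, 9 of 25 of 28S methylation, 5 of 14 of 18S pseudouridylation and 6 of 26 of 28S pseudouridylation were called.

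**Figure D2:**
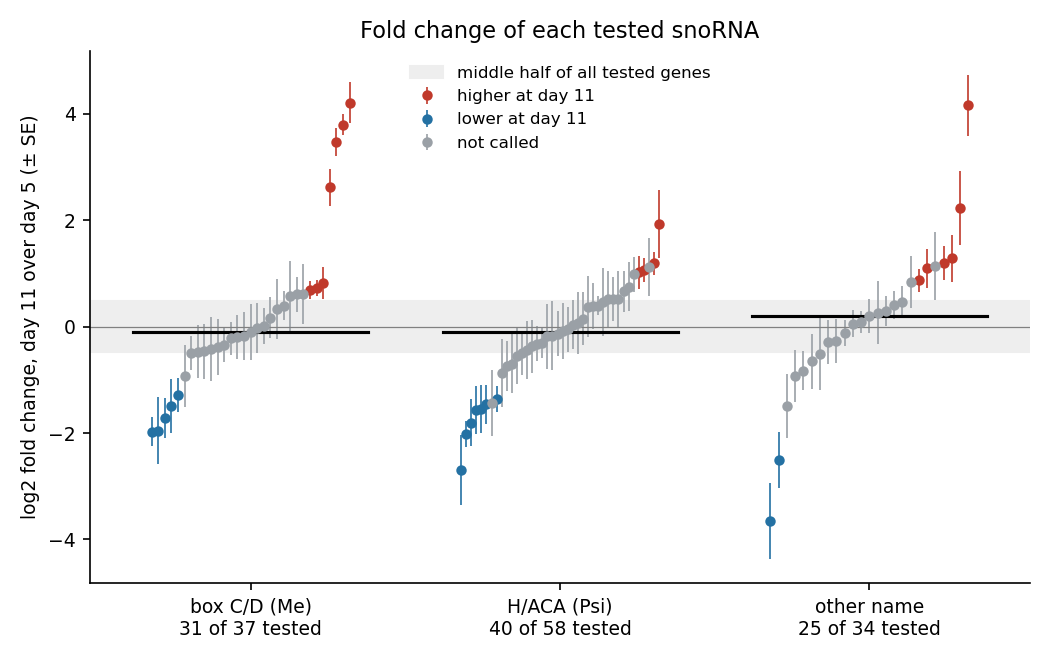
Log2 fold change, day 11 over day 5, of each tested member by kind of snoRNA, with error bars of 1 SE, called members in colour, the median of each kind as a line and the quartile range of all genes shaded. Each kind spread on both sides of 0, with medians of −0.10, −0.11 and 0.20 for box C/D, H/ACA and other names.

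Among the box C/D RNAs, the 3 A2589 guides, copies assigned to a single adenosine of 28S RNA, were all higher at day 11. All lie in introns of dom, the gene of an ATPase of the Tip60 chromatin-remodelling complex, on arm 2R. Me28S-A2589a had 62.2, 76.4 and 77.6 CPM at day 11 and 5.29, 6.26 and 3.92 CPM at day 5, a log2 fold change of 3.80 (SE 0.20, 95% interval 3.37 to 4.23, edgeR adjusted p = 4.53e-07). Me28S-A2589b had 15.7, 17.99 and 15.7 CPM at day 11 and 1.59, 1.45 and 1.39 CPM at day 5 (log2 fold change 3.47, SE 0.26, edgeR adjusted p = 3.73e-06). Me28S-A2589c was near the counting floor at day 5, with 0.397, 0.843 and 0.506 CPM, against 8.99, 12.8 and 11.8 CPM at day 11 (log2 fold change 4.21, SE 0.38). For the a and b copies the lowest day 11 library stood far above the highest day 5 library, a gap wider than the spread within either day. The c copy met the count rule only through day 11, so its values are a description. The ratio of the a copy to the b copy stayed between 3.95 and 4.94 at day 11 and between 2.82 and 4.33 at day 5. The ratio of the a copy to the c copy was 6.92, 5.99 and 6.59 at day 11 and 13.3, 7.43 and 7.75 at day 5, without overlap, though it rests on 14 counts of the c copy at day 5. How reads shared between lettered copies were assigned is not known, and the 3 changes may not be independent measurements.

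Me18S-A1576, the most abundant box C/D RNA per length, had 335 CPM per 100 nt over all libraries. It is 113 nt long and lies in Uhg2 at 2L:9894795-9894907 (dm6, minus strand). It had 389, 817 and 747 CPM at day 11 and 92.9, 140.6 and 84.8 CPM at day 5, so that every day 11 library exceeded every day 5 library. Its log2 fold change was 2.62 (SE 0.34, 95% interval 1.79 to 3.45, edgeR adjusted p = 0.00173), 6.13-fold higher at day 11. The other tested member in Uhg2, U14:30Ea, a guide and rRNA-processing RNA, had 2.89, 3.23 and 2.47 CPM at day 11 and 2.12, 3.37 and 4.81 CPM at day 5, with days that overlapped (log2 fold change −0.26, edgeR adjusted p = 0.652).

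A smaller rise was seen for another well-counted box C/D RNA. Me28S-A3407a, in Uhg1, had 61.0, 69.9 and 61.1 CPM at day 11 and 35.3, 44.9 and 35.3 CPM at day 5 (log2 fold change 0.73, SE 0.15, edgeR adjusted p = 0.00267). It was higher in each day 11 library. The rise of the low Me28S-U2134b, in RpL13A, had an edgeR adjusted p of 0.0485 and did not hold in 9 of 17 other settings, including the removal of any one library except day 5 replicate 2 or day 11 replicate 1.

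Of the 5 box C/D RNAs that fell, Me28S-G3253 was the most abundant. It is 88 nt long and lies in RpS9 at 3L:9510720-9510807 (minus strand), and it is the 1 member that overlaps an exon on the other strand, that of asRNA:CR45874; with the strand setting not given, the reads of the pair cannot be told apart. It had 15.2, 33.1 and 27.2 CPM at day 11 and 89.0, 117.7 and 87.2 CPM at day 5, 3.92-fold lower at day 11 (log2 fold change −1.97, SE 0.27, 95% interval −2.58 to −1.36, edgeR adjusted p = 0.000623). Me18S-C1366, in Uhg5, had 2.78, 5.38 and 2.04 CPM at day 11 and 8.73, 15.1 and 9.49 CPM at day 5 (log2 fold change −1.72, SE 0.37, edgeR adjusted p = 0.00397). Me28S-A774a, in RpS12, had 2.78, 4.46 and 6.25 CPM at day 11 and 11.5, 12.2 and 8.73 CPM at day 5 (log2 fold change −1.28, SE 0.32, edgeR adjusted p = 0.00832). All 3 were lower in each day 11 library. Me18S-C419, in RpL15, and Me28S-G2703b, in Uhg5, had log2 fold changes of −1.96 and −1.49. Removing a single library ended the call of the first for each of the 3 day 5 libraries and for day 11 replicates 2 and 3, and the second for every library except day 5 replicate 3.

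**Figure D3:**
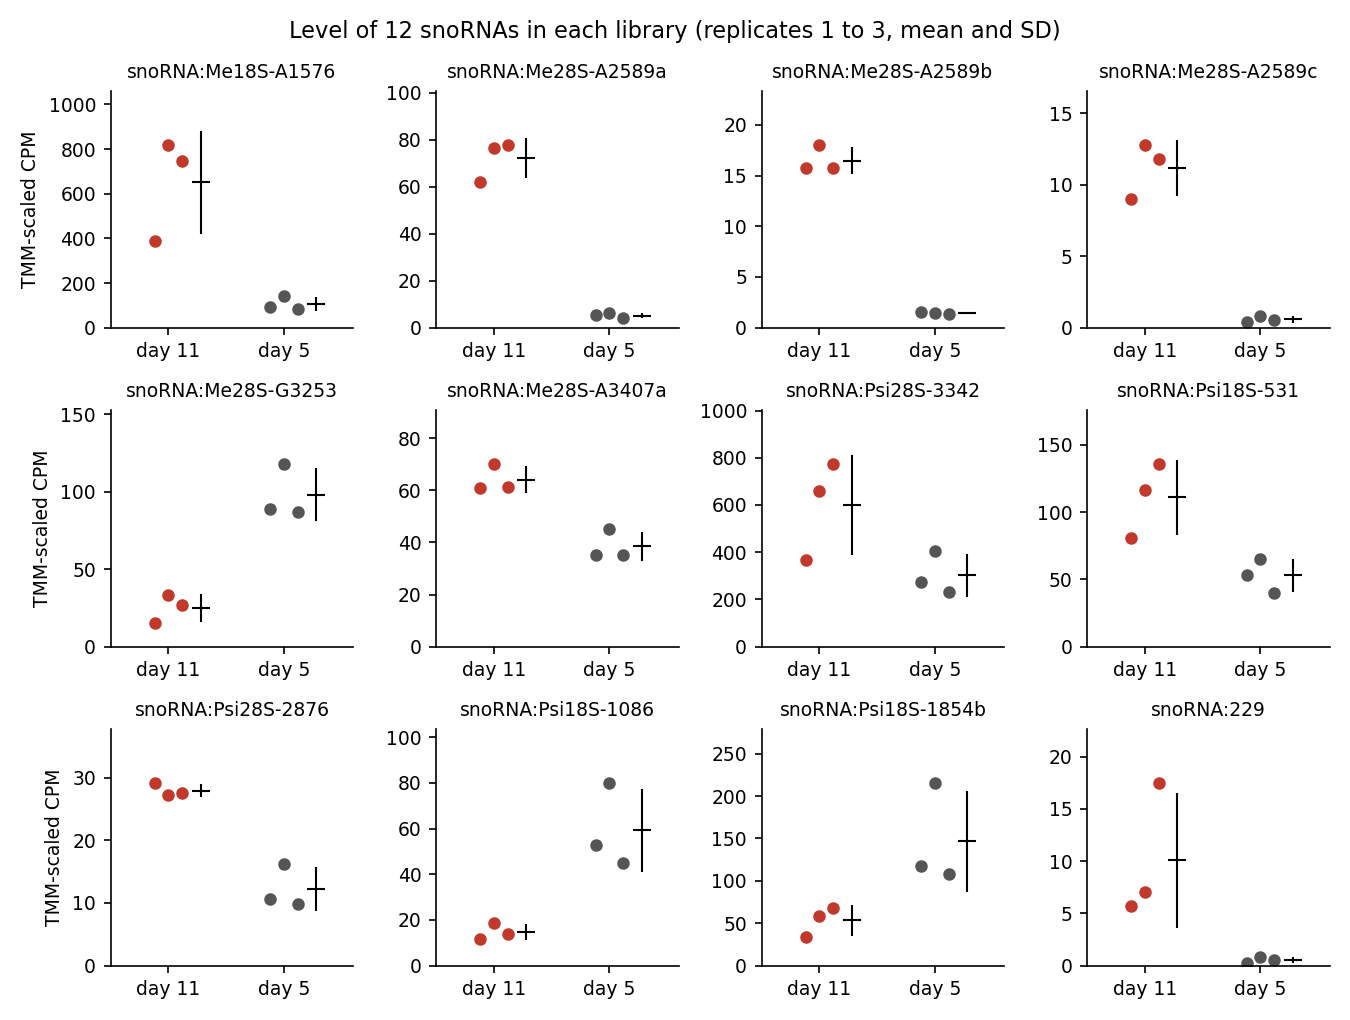
TMM-scaled CPM of 12 named members, 1 panel each with its own linear axis from 0; points are libraries, day 11 left of day 5, and the bars beside them give the mean and SD. The A2589 copies, Me18S-A1576 and snoRNA:229 lie higher at day 11, while Me28S-G3253, Psi18S-1086 and Psi18S-1854b lie lower.

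Psi28S-3342 was the most counted member of all, 164 nt long and in no annotated same-strand gene, at X:5524302-5524465 (minus strand). It had 365, 660.0 and 773 CPM at day 11 and 273, 405 and 230.0 CPM at day 5, and day 11 replicate 1 lay below day 5 replicate 2. Its log2 fold change of 0.98 (SE 0.33, 95% interval 0.17 to 1.80) had an edgeR adjusted p of 0.0629 and was not called, though 7 of 17 other settings called it higher. The value was 1.25 without day 11 replicate 1 (edgeR adjusted p = 0.0189) and 1.24 without day 5 replicate 2 (edgeR adjusted p = 0.0226).

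Of the 4 H/ACA RNAs that rose, the 2 with the smallest p lie within X-linked ribosomal protein genes. Psi18S-531, at X:763083-763234 (minus strand), lies inside both RpL22 and the non-coding CR42491. It had 80.8, 116.2 and 135.5 CPM at day 11 and 53.2, 65.3 and 40.2 CPM at day 5 (log2 fold change 1.06, SE 0.22, edgeR adjusted p = 0.00412). Psi28S-2876, in RpS5a, had 29.1, 27.2 and 27.5 CPM at day 11 and 10.6, 16.3 and 9.87 CPM at day 5 (log2 fold change 1.19, SE 0.21, edgeR adjusted p = 0.00108). The days did not overlap for either. Psi28S-2648, in RpL36A, had 10.8, 12.6 and 10.0 CPM at day 11 and 5.56, 7.71 and 3.16 CPM at day 5 (log2 fold change 1.02, edgeR adjusted p = 0.0239), a call lost without day 5 replicate 1, day 5 replicate 3 or day 11 replicate 2. Psi18S-525k, in Msp300, the gene of a nuclear-envelope nesprin, stayed at or below 2.15 CPM in every library (log2 fold change 1.93) and kept its call only without day 5 replicate 2 when single libraries were left out.

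H/ACA RNAs that fell included Psi18S-1086, which lies in Sf3b3, a splicing factor gene listed as CG13900, at 3L:833062-833209 (minus strand). It had 11.9, 18.6 and 13.8 CPM at day 11 and 52.9, 79.9 and 44.8 CPM at day 5 (log2 fold change −2.01, SE 0.24, 95% interval −2.55 to −1.47, edgeR adjusted p = 0.000178). Psi28S-2949, the Psi-named member in a Uhg gene (Uhg4), had 5.67, 6.61 and 6.83 CPM at day 11 and 19.7, 17.6 and 11.6 CPM at day 5 (log2 fold change −1.36, SE 0.25, edgeR adjusted p = 0.00146). Psi28S-1175b, in RpS16, rested on 11 counts at day 11 and 80 at day 5 (log2 fold change −2.70, SE 0.65). Psi28S-291, in RpL3, had 1.71, 1.08 and 1.45 CPM at day 11 and 6.09, 3.73 and 3.04 CPM at day 5 (log2 fold change −1.57, edgeR adjusted p = 0.0171), a call lost without day 5 replicate 1 or day 11 replicate 3. In each of these 4 RNAs every day 11 library was below every day 5 library.

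The Psi18S-1854 guides, 3 copies assigned to a single uridine of 18S RNA and all within RpS5a, had negative fold changes, and 2 were called. Psi18S-1854b, at X:17145557-17145695 (minus strand), had 33.6, 58.4 and 68.3 CPM at day 11 and 117, 215 and 108 CPM at day 5 (log2 fold change −1.46, SE 0.37, edgeR adjusted p = 0.0213). That call was lost without day 11 replicate 1 or day 11 replicate 2. Psi18S-1854a had 0.963, 2.77 and 1.89 CPM at day 11 and 5.16, 8.91 and 5.19 CPM at day 5 (log2 fold change −1.80, SE 0.44, edgeR adjusted p = 0.00752). Psi18S-1854c overlapped between days, with 10.6, 38.3 and 41.0 CPM at day 11 and 45.5, 84.8 and 33.0 CPM at day 5, a log2 fold change of −0.88 with a 95% interval of −2.55 to 0.80 (edgeR adjusted p = 0.35).

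Among the members with other names, snoRNA:229 had the highest fold change. It is 140 nt long and lies within Fib, the fibrillarin gene. It had 5.67, 7.07 and 17.4 CPM at day 11 and 0.265, 0.843 and 0.506 CPM at day 5, or 219 against 13 counts (log2 fold change 4.16, SE 0.57). Its highest library, day 11 replicate 3, was also the one with 1225 CPM of salivary gland markers, and without that library the log2 fold change was 3.52. Day 11 replicates 1 and 2 still held 104 and 111 CPM of these markers, and their part in the change was not tested. Tudor-SN-a had 39.2, 23.5 and 32.3 CPM at day 11 and 13.8, 17.9 and 20.2 CPM at day 5 (log2 fold change 0.87, SE 0.21, edgeR adjusted p = 0.00763). With libraries scaled by total counts its edgeR adjusted p was 0.0714.

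In this group snoRNA:185, which lies in no same-strand gene, fell to 0.856, 1.38 and 1.45 CPM at day 11, against 5.42, 12.05 and 3.29 CPM at day 5 (log2 fold change −2.50, SE 0.52). Or-CD10, in RpL7A, had 3 counts at day 11, 1 in each library, against 44 at day 5, a ratio of 0.0713 with an exact binomial 95% interval of 0.0142 to 0.222 that covers counting error only. Both snoRNA:185 and Or-CD10 met the count rule only through day 5, so their values, the interval included, are a description. Or-CD8, the second most abundant of the group, had 23.3, 18.9 and 20.1 CPM at day 11 and 7.67, 18.9 and 18.6 CPM at day 5 and was not called (log2 fold change 0.46, 95% interval −0.20 to 1.13, edgeR adjusted p = 0.252). The remaining 4 called members rose, with log2 fold changes of 1.10 for kis-a, 1.20 for the member in CG10576, 1.28 for U76:54Eb and 2.23 for CG32479-a and, for the first 3, edgeR adjusted p-values between 0.0112 and 0.0382. Each lost its call without day 11 replicate 3, kis-a, U76:54Eb and CG32479-a also without day 5 replicate 1 or day 5 replicate 3, kis-a and CG32479-a without day 11 replicate 2, and kis-a without day 5 replicate 2.

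By position, 119 of the members lie within 57 annotated genes on the same strand and 10 lie in none. None overlaps an exon of a same-strand gene, so those 119 are intronic, and 60 members have a copy that differs by a letter or cytological suffix. Ribosomal protein genes hold 43 members (11 box C/D, 27 H/ACA), Uhg genes 26 (16 box C/D, 1 H/ACA) and other genes 50. The median length was 80 nt for box C/D, 140.5 nt for H/ACA and 96.5 nt for other names. Of the tested members, 5 rose and 8 fell of 34 in ribosomal protein genes, 3 rose and 3 fell of 20 in Uhg genes, and 9 rose and 2 fell of 34 in other genes. The shares called, 38.2%, 30% and 32.4%, lie near the 37% of all genes.

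In 2 hosts, dom and RpS5a, members were called in both directions. In dom, Psi28S-3378 fell to 1.28, 1.84 and 2.47 CPM at day 11, against 4.37, 8.43 and 3.42 CPM at day 5 (log2 fold change −1.55, SE 0.46, edgeR adjusted p = 0.0196), whereas the 3 A2589 copies were higher. Its call was lost without day 5 replicate 2. Within a library, Me28S-A2589a stood at 48.4, 41.4 and 31.4 times Psi28S-3378 at day 11 and at 1.21, 0.743 and 1.15 times at day 5, a ratio that library scaling leaves unchanged. The fifth tested member in dom, Psi18S-1389a, had 2.03, 2.46 and 3.49 CPM at day 11 and 3.31, 2.89 and 2.02 CPM at day 5 (log2 fold change −0.05, edgeR adjusted p = 0.939). In RpS5a the ratio of Psi28S-2876 to Psi18S-1854b was 0.866, 0.466 and 0.402 at day 11 and 0.0904, 0.0756 and 0.0912 at day 5.

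Other hosts with several tested members had calls in 1 direction or none. In Uhg1, 2 of 7 tested members rose (Me28S-A3407a and U76:54Eb) and the other 5 were not called. In RpS16 all 3 tested members had negative fold changes and in Arpc2 all 3 had positive ones, with 1 call in RpS16. Arpc2 also holds 2 members too low to test, which had fewer counts at day 11. Psi18S-640f had 10 counts at day 11 and 75 at day 5, and Psi18S-640b had 7 and 24. In Uhg5 all 7 tested members had negative fold changes, from −1.72 to −0.03, and 2 were called. In kra, the log2 fold changes of 5 H/ACA guides ran from −1.44 to 0.39, with edgeR adjusted p-values of 0.092 and above. The most abundant of them, Psi28S-3385a, had 25.8, 32.1 and 30.4 CPM at day 11 and 21.7, 27.3 and 17.96 CPM at day 5, with days that overlapped.

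**Figure D4:**
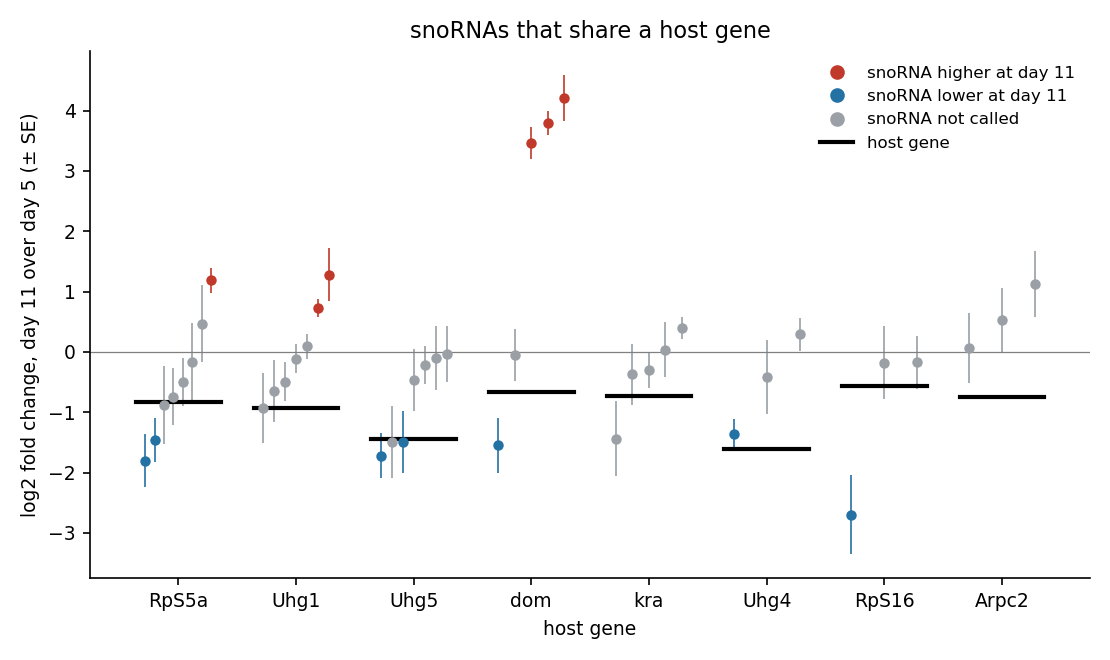
Log2 fold change, day 11 over day 5, of each tested member grouped by host gene, with error bars of 1 SE and the host's own log2 fold change as a black line. In dom the A2589 copies lie at 3.47 to 4.21 and Psi28S-3378 at −1.55, while dom itself lies at −0.66.

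Most host genes fell. Of 55 hosts tested, 36 (65.5%) were lower at day 11, 17 were not called and 2 were higher, beside 17.9% lower over all genes. Many hosts are ribosomal protein genes, and of 84 tested RpL and RpS genes, hosts or not, 61 were lower. The 2 that rose were gcl, which acts in germ cell formation, and lola, a transcription factor gene. Uhg1, Uhg2, Uhg4 and Uhg5 had log2 fold changes of −0.93, −1.50, −1.61 and −1.44, and all 6 tested Uhg genes fell, with sums of 46.9, 86.9 and 76.6 CPM at day 11 and 172.7, 214.5 and 148.0 CPM at day 5. RpS5a fell by 0.83 on the log2 scale (edgeR adjusted p = 0.0002). The gene dom averaged 85.5 ± 3.72 CPM at day 11 and 135.6 ± 7.05 CPM at day 5 (SD, n = 3 each; log2 fold change −0.66, edgeR adjusted p = 0.00153).

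For the 86 tested members with a tested host (45 hosts in all), 62 had a fold change above that of the host and 24 below it. The median host change over these pairs was −0.73, below the lower quartile of −0.47 over all genes tested. Most tested genes would thus lie above such a host, so this count alone does not set snoRNAs apart. The median of member minus host was 0.79 on the log2 scale over all 86, 0.97 over 29 box C/D RNAs and 0.43 over 36 H/ACA RNAs. By host class it was 1.02 over 19 members in Uhg genes, 0.35 over 33 in ribosomal protein genes and 0.86 over 34 in other genes. The kinds differ in their hosts, and kind and host class were not separated. The host was called lower in 72 of the 86 pairs. In 10 of these 72 the member fell too, and in 13 it rose, beside 17.9% lower and 19.1% higher over all genes tested. The 2 hosts that rose hold 1 tested member each, and neither member was called. Me18S-A1576 stood at 56.8, 40.9 and 40.4 times the CPM of Uhg2 at day 11 and at 2.30, 2.47 and 2.91 times at day 5. The count for a host comes from tags near its 3′ end and that of an intronic RNA from its own locus, so the ratio is compared here between days and not as a number of molecules.

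**Figure D5:**
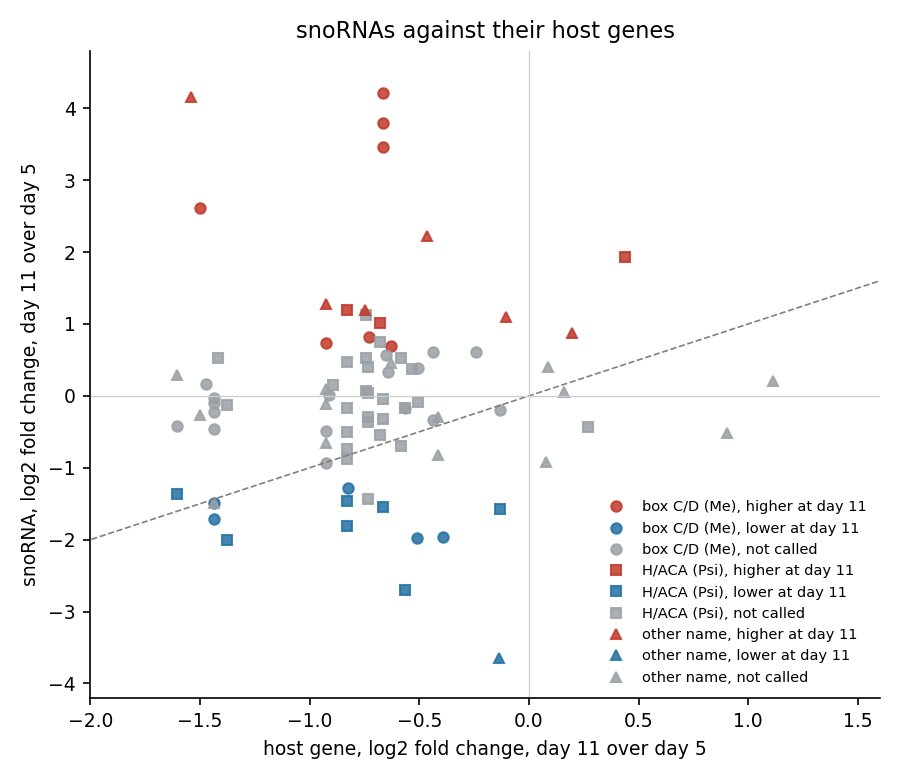
Log2 fold change, day 11 over day 5, of each tested member (vertical axis) against that of its host gene (horizontal axis), with the kind as symbol, the call as colour and a dashed line of equal change. Most points lie left of 0, with a median host change of −0.73, and 62 of 86 lie above the line.

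The genes of the snoRNA-bound proteins fell as well, from lists chosen with earlier results of these data known. All 4 box C/D core genes were lower at day 11. Fib had 50.7, 77.2 and 80.8 CPM at day 11 and 192, 197 and 218 CPM at day 5 (log2 fold change −1.54), and nop5, Nop56 and hoip had log2 fold changes of −1.66, −1.21 and −1.91. The list summed to 303, 345 and 361 CPM at day 11 and to 888, 988 and 1065 CPM at day 5. All 4 H/ACA core genes (Nop60B, NHP2, CG4038 for Gar1 and CG7637 for Nop10) were lower, with log2 fold changes from −1.59 to −1.42 and sums of 301, 352 and 356 CPM at day 11 and 830, 948 and 999 CPM at day 5. In neither list did the days overlap, and the members as a group, with a median of −0.039, lay above both. Of all genes tested, 17.9% were called lower and 25.2% had every day 11 library below every day 5 library.

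Of 8 tested assembly factors, Nop17l rose by 0.75 on the log2 scale and 3 fell, namely pont and rept, the AAA ATPases of the R2TP pathway, and Nopp140, a nucleolar and Cajal body chaperone. Of 11 tested genes for snoRNA tailing and trimming, 2 rose and 4 fell. Over all genes, 19.1% rose and 17.9% fell. Trf4-1, a non-canonical poly(A) polymerase that tails RNAs for the nuclear exosome, had 234, 162 and 191 CPM at day 11 and 122, 114 and 121 CPM at day 5 (edgeR adjusted p = 0.00283). CG9715, whose human counterpart ZCCHC7 works beside it, had 81.3, 60.4 and 76.0 CPM at day 11 and 53.7, 49.1 and 52.2 CPM at day 5. The 4 that fell were Mtr4, the exosome's helicase, and the exosome subunits Rrp42, Rrp46 and Mtr3. Whether these genes bear on the level of tailed snoRNA was not tested.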

How the data were processed

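Per the labels' protocols, poly(A) RNA of pooled discs went into QuantSeq FWD 3′ libraries. The deposited values are raw read counts per gene, 1 column per library. Per the submitters' processing notes, reads went through FastQC, cutadapt and STAR 2.6.1d against dm6. Which annotation, counter, strand setting and treatment of multiply mapped reads were used is not given in the sources, and lettered copies and overlapping genes are uncertain.

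Counts were filtered (filterByExpr), scaled (TMM) and tested with edgeR 4.0.16 (quasi-likelihood, robust, R 4.3.3), day 11 over day 5, two-sided, adjusted over 8010 genes. The common coefficient of variation was 0.211. limma 3.58.1 and DESeq2 1.42.0 served as alternatives, and the fit was tested on simulated data. A permutation test of 3 libraries against 3 cannot go below p = 0.1. All 129 members matched the Ensembl annotation of the dm6 assembly, which gave 1-based coordinates and hosts, the host being the smallest same-strand gene spanning a member.

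Members and lists were chosen with earlier results of these data known. Named members were the 5 most abundant of box C/D and of H/ACA, 2 of other names, the called members of smallest p (up to 10 each way), their hosts, core protein genes and those next to the count limit; the remaining called members were named after their values were seen. One member that this rule names is not reported here.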

Additional observations from a re-analysis of the deposited data

How the results depend on the processing

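Over 17 other settings no called member changed sign: 17 of the 31 stayed called in every setting run (8 higher, 9 lower), 6 lost the call in 1 to 3 settings and 8 in 4 or more. The 17 include Me28S-A2589c, snoRNA:229, Or-CD10, snoRNA:185 and Psi28S-1175b. These met the count rule only through their high day, so their calls remain a description. The box C/D median log2 fold change of −0.10 was −0.41 after scaling by total counts, 0.41 with at least 5 CPM in 3 libraries and 0.97 after subtracting each host's fold change, and the H/ACA median of −0.11 was 0.43 after that subtraction. The scaling and the filter change the zero point and the members kept, and the subtraction adds the fall of the hosts. Leaving out 1 library at a time gave medians from −0.30 to 0.16 for box C/D and from −0.57 to 0.12 for H/ACA, 22 to 31 called members and 2202 to 3008 called genes. With all 58 H/ACA members tested the median was −0.35. Replicate numbers did not pair the libraries (correlations of same-numbered libraries 0.055, 0.22 and −0.098). The fit with a replicate block called 18 members higher and 13 lower, 30 of them shared with the unblocked fit, and 2940 genes, with medians of −0.058 for box C/D and −0.065 for H/ACA. Low counts limit the 33 untested members.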

Other observations

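Other short nuclear RNAs were measured in the same libraries. The small Cajal body RNAs, relatives of snoRNAs that guide modification of spliceosomal RNAs, summed to 73.6, 89.8 and 95.4 CPM at day 11 and to 35.99, 53.4 and 35.8 CPM at day 5. Of 6 tested, 3 rose and the other 3 were not called, beside 19.1% higher and 17.9% lower over all genes. The strongest rise was that of a guide named for U2 pseudouridines, which had 30.4, 29.8 and 32.3 CPM at day 11 and 3.04, 2.89 and 2.15 CPM at day 5 (log2 fold change 3.51, SE 0.21, edgeR adjusted p = 6.87e-07). scaRNA:PsiU1-6 and scaRNA:MeU5-C46 had log2 fold changes of 1.43 and 0.70 (edgeR adjusted p = 0.0101 and 0.0416). Of 11 tested snRNA genes 27.3% were called, against 37% of all genes. Among them 7SK rose by 0.60 on the log2 scale, and U12:73B and U5:34A fell by 2.84 and 3.63. At day 11 U5:34A was near the counting floor, with 0.428, 0.154 and 0.291 CPM. The other tested U5 rows, U5:63BC and U5:23D, had log2 fold changes of 0.44 and −1.36 and were not called.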
